A study of Rattus norvegicus with 2 samples.

Results

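The genes of the major histocompatibility complex (MHC), which the rat carries as the RT1 complex, were examined together with those that supply and load their peptides. All probe sets annotated to a symbol starting with RT1-, or to Cd74, B2m, Tap1 or Tap2, were taken, which gave 45 of the 8799 probe sets on the array. Of these, 17 belonged to class I with its light chain B2m, 24 to class II with its chaperone Cd74, and 3 to the peptide transporter genes Tap1 and Tap2. The remaining probe set listed B2m among several unrelated symbols and was placed in no class. Together the probe sets with a single symbol covered 21 genes.

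The animals were a male Wistar rat aged 15 weeks that spent 2 weeks in an immobilization cage and a male Wistar rat of the same age that spent the same 2 weeks in a metabolic cage, without immobilization, as the control. Total RNA of the duodenal mucosa, which the labels call epithelial cells, was hybridised to 1 rat U34A array per rat. The sources used here give neither the RT1 haplotype of the rats nor whether RNA was pooled. With 1 array per condition no test, SD between animals or p-value could be obtained, and precision is limited by the number of arrays.

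MHC class I molecules consist of a polymorphic heavy chain and beta-2-microglobulin. They present peptides that the proteasome cuts in the cytosol and that the Tap1-Tap2 transporter moves into the endoplasmic reticulum. MHC class II molecules consist of an alpha and a beta chain that assemble with the invariant chain Cd74 and receive peptides in endosomes, with the help of DM and under the restraint of DO. Class I is found on nearly all nucleated cells, and class II mainly on professional antigen-presenting cells, although villus enterocytes of the rodent small intestine can carry it too.

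The array signals are in arbitrary linear units. Signals of the immobilized rat were scaled by a factor of 1.015, which brought the median log2 ratio over the array to 0.00, and the signal floor was 39.9, the 50th percentile of all signals. Signals of different probe sets depend on their probes and are not compared with each other. Technical error, taken from probe sets of the same gene outside the complex, had an SD of 0.31 on the log2 scale (687 genes, 1547 probe sets). It holds no spread between animals and no error that the probe sets of a gene share. Hybridisation spike-ins were lower in the immobilized rat for 7 of 9 probe sets, with a median log2 ratio of -0.21, and the beta-actin and GAPDH control probe sets for 6 of 6, with a median of -0.33. Enterocyte markers were present in both rats, with 8 of 8 measured genes above the floor.

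In position, 24 of the genes that the annotation lists for these probe sets were found in the RefSeq annotation of rat assembly GRCr8, and 22 of them lie on chromosome 20. The others are Cd74 on chromosome 18 (56527071 to 56536406) and B2m on chromosome 3 (129549236 to 129555354). The promoters of 8 genes are printed below from RefSeq (GRCr8). All 8 hold a match to the core letters of an element through which MHC genes are known to be regulated together, but not all windows of the complex do. Each window runs 5′ to 3′ on the gene's strand, from 250 bases before to 50 bases after the start site used for it. For RT1-A1, RT1-S3, B2m and RT1-Da that site lies inside the annotated gene span and not at its outer end. Capitals mark matches, on either strand, to 4 motifs. These were the Y box core TGATTGG, the X2 box core TGATGANG, the interferon-stimulated response element core (GAAA, any 2 bases, GAAA) and the class I interferon consensus core TTCACTT. The motifs were chosen with values of these data known.

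RT1-A1 (class I heavy chain, chr20:4906959-4907258, plus strand): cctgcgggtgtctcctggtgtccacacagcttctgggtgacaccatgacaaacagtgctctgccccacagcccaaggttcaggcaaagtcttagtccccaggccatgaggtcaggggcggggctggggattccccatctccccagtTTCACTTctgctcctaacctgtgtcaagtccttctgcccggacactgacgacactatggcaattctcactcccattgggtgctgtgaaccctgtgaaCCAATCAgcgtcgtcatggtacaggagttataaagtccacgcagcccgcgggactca
RT1-S3 (class Ib heavy chain, chr20:2675278-2675577, plus strand): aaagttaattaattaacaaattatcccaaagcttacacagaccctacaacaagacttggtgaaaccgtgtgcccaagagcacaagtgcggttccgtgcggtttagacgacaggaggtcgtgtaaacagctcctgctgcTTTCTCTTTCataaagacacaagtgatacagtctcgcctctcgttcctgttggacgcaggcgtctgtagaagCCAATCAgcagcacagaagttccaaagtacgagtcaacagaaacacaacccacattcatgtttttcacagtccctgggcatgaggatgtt
B2m (class I light chain, chr3:129549080-129549379, plus strand): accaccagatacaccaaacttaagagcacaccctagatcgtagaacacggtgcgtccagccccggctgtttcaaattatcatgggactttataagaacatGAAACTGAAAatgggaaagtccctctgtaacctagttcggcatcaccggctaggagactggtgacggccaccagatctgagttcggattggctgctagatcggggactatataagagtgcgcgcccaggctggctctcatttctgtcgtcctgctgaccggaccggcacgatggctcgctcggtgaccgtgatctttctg
Tap1 (transporter, chr20:4668494-4668793, minus strand): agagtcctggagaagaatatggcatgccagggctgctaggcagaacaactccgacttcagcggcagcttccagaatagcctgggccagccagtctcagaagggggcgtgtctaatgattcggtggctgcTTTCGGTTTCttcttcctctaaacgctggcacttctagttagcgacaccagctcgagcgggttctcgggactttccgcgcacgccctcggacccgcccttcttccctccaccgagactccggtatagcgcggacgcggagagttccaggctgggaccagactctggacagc
Tap2 (transporter, chr20:4652247-4652546, minus strand): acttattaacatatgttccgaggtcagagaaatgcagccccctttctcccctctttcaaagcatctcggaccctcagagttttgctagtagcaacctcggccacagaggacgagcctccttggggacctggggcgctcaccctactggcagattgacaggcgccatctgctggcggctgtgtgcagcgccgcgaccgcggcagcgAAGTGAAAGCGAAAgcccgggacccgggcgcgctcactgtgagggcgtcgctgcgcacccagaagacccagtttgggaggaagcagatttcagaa
RT1-Ba (class II alpha chain, chr20:4576807-4577106, plus strand): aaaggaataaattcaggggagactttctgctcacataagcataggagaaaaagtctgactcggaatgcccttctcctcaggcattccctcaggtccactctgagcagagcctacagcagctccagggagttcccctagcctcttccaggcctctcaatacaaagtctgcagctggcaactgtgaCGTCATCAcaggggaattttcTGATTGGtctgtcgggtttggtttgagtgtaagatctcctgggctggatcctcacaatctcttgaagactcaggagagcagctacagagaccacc
RT1-Bb (class II beta chain, chr20:4604069-4604368, minus strand): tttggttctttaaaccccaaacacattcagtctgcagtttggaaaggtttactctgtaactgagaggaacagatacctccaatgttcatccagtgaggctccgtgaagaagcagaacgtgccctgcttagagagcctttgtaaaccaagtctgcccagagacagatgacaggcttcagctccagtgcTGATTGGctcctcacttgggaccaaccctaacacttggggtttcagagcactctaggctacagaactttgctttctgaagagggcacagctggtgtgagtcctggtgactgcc
RT1-Da (class II alpha chain, chr20:4515165-4515464, plus strand): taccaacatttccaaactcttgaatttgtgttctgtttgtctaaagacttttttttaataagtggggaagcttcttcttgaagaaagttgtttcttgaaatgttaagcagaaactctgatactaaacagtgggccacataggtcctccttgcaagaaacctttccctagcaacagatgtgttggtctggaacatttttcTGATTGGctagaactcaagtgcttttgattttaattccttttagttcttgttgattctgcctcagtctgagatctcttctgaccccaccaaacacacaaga

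Windows existed for 22 of 25 genes named by the annotation, and matches of the last pair of motifs overlapped in those of Tap2 and RT1-N3. The windows of RT1-CE12, RT1-M5, RT1-M6-1 and RT1-N2, which are not printed, held no match to any of the motifs. The Y box core was found in 8 of 9 class II windows and 6 of 11 class I windows, against 7.06% of all 33469 rat promoter windows. The X2 box core was found in 4 of 9 class II and 3 of 11 class I windows, against 3.98% of all windows. The interferon-stimulated response element core was found in the windows of Tap1 and Tap2, in 3 of 11 class I windows (B2m, RT1-N3 and RT1-S3) and in 0 of 9 class II windows, against 3.92%. The class I interferon consensus core was found in Tap2, in 5 of 11 class I windows (RT1-A1, RT1-A3, RT1-CE16, RT1-M3-1 and RT1-N3) and in 0 of 9 class II windows, against 4.70%. A match is a run of letters and not evidence of binding.

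Most MHC probe sets had nearly the same signal in both rats, and 1 class I probe set stood far apart. Of the 45, 36 exceeded the floor on both arrays, 1 in the immobilized rat only and 8 on neither. Among the 36, 19 were higher and 17 lower in the immobilized rat, with a median log2 ratio of 0.01. Among the 4105 probe sets of the whole array above the floor on both arrays, 49.8% were higher. In the complex 1 of the 36 was at least 2-fold higher and 0 at least 2-fold lower, while 2.34% of all probe sets were 2-fold higher and 0.853% 2-fold lower. A difference of 1.5-fold either way was reached by 2 of the 36, AF074609mRNA_f_at and a Tap1 probe set, against 14.3% of all. Among probe sets with a geometric mean signal over 1000 units, 0 of 15 in the complex differed by 1.5-fold, against 8.66% of 681 on the whole array. That limit left out AF074609mRNA_f_at and the Tap1 probe sets. For only 15 probe sets, several of them of the same gene, 0 is not far from the array share.

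**Figure D1:**
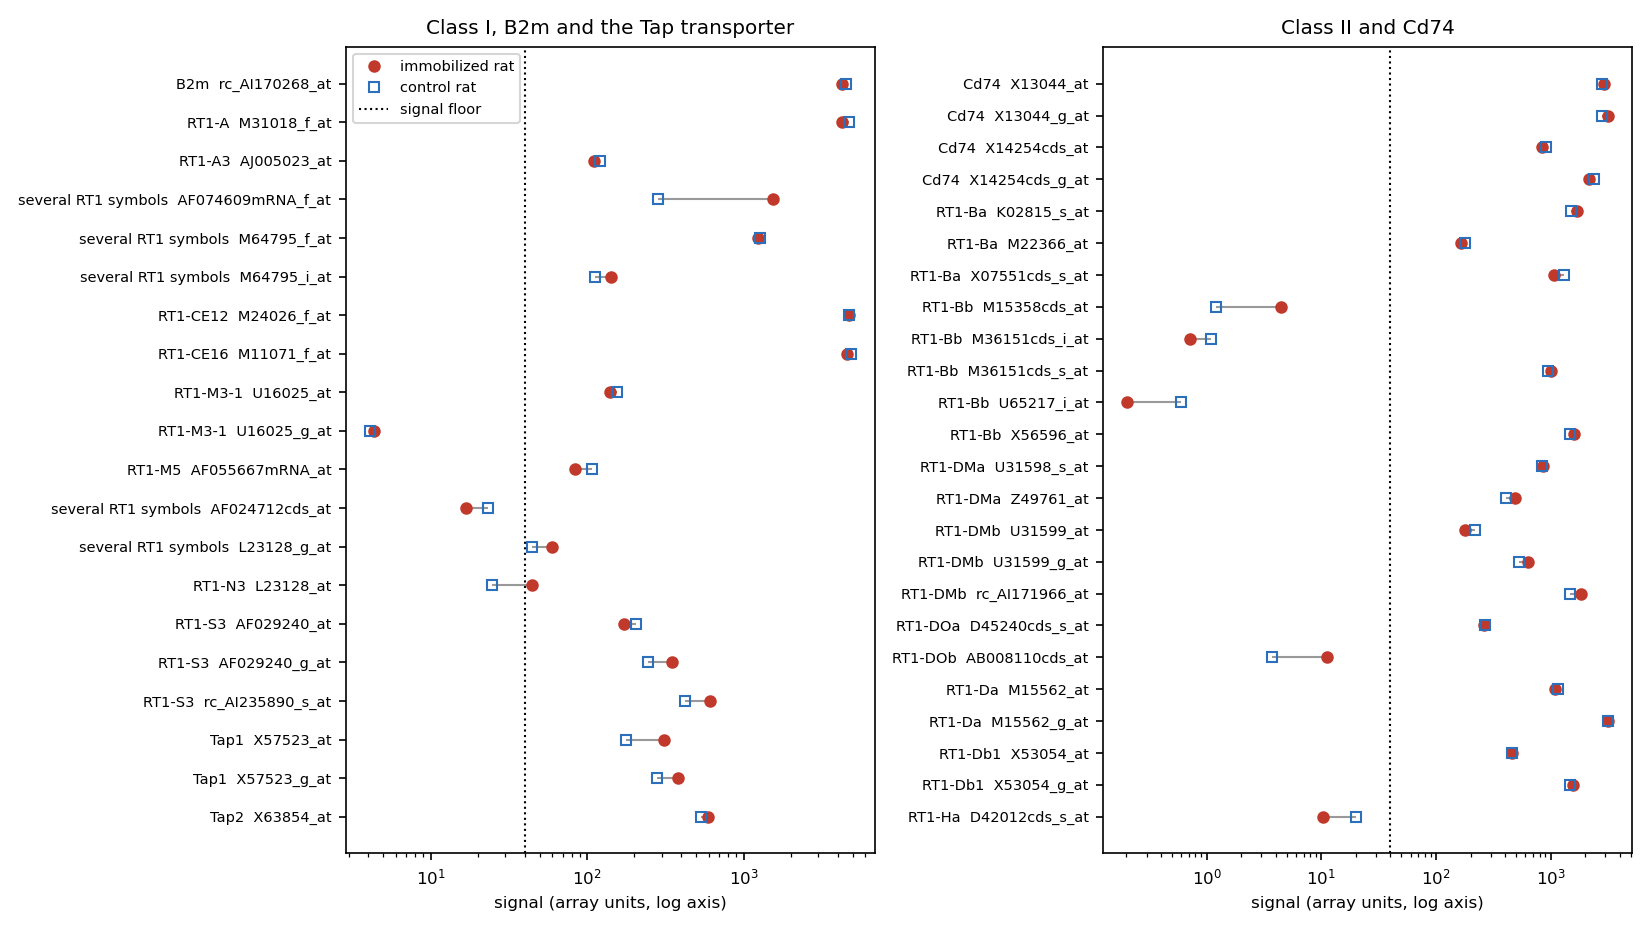
Signal (array units, log axis) of each class I, B2m, Tap and class II probe set in the immobilized rat (filled circles) and the control rat (open squares), with the signal floor of 39.9 as a dotted line. The symbols overlap for most probe sets, and AF074609mRNA_f_at stands apart with 1543 in the immobilized rat and 284 in the control rat.

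In class I, 14 of the 17 probe sets were above the floor on both arrays. Of these, 5 were higher and 9 lower in the immobilized rat, with a median log2 ratio of -0.06 and a range from -0.36 to 2.44. The split was 8 higher and 6 lower after quantile normalization, and the same after loess, with medians of 0.03 and 0.02.

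B2m, the light chain shared by class I molecules, had a signal of 4234 in the immobilized rat and 4525 in the control rat, a log2 ratio of -0.10 that was -0.12 to 0.01 over the settings tried, above 0 after quantile normalization and loess. Classical class I heavy chains, which present peptides to CD8+ T cells, were represented by RT1-A with 4270.3 in the immobilized rat and 4743 in the control rat (log2 ratio -0.15). RT1-A3, of the same region, had 111 in the immobilized rat and 122 in the control rat (-0.13). These class I values differed between the rats by less than 1 technical SD.

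Among genes of the RT1-C/E region, RT1-CE16 had 4603 in the immobilized rat and 4838 in the control rat (-0.07), and RT1-CE12 had 4694 in the immobilized rat and 4728 in the control rat (-0.01). The sign of both turned after quantile normalization and loess, reaching at most 0.04 for RT1-CE16 and 0.10 for RT1-CE12. These probe sets, like that of RT1-A, carry the suffix by which the manufacturer marks probes shared within a sequence family, so that signal from related heavy chains cannot be assigned to 1 locus.

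The outlying probe set, AF074609mRNA_f_at, carries the same family suffix and is annotated to RT1-A, RT1-CE16 and RT1-A1 together. Its signal was 1543 in the immobilized rat and 284 in the control rat, 5.43-fold higher, with a log2 ratio of 2.44. It ranked 5 from the top among the 4105 probe sets, and its ratio was 2.38 to 2.45 over the settings tried. A pair of further probe sets carries the same 3 symbols. M64795_f_at had 1239 in the immobilized rat and 1282 in the control rat (-0.05). M64795_i_at had 143 in the immobilized rat and 113 in the control rat (0.34). Probe sets of identical annotation thus had log2 ratios between -0.05 and 2.44, and single-symbol probe sets of RT1-A and RT1-CE16 lay below 0 at -0.15 and -0.07 (above 0 for RT1-CE16 after quantile normalization and loess). The difference at AF074609mRNA_f_at therefore holds for that probe set and is not a measured rise of the 3 genes. Without it, class I had 4 higher and 9 lower probe sets, with a median of -0.07 and a maximum of 0.53.

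Among nonclassical class I genes, RT1-S3, the counterpart of mouse H2-T23, whose product displays signal peptides of other class I chains to receptors of natural killer cells, had 3 probe sets. The first, rc_AI235890_s_at, had a signal of 609 in the immobilized rat and 422 in the control rat, a log2 ratio of 0.53. The second, AF029240_g_at, had 348 in the immobilized rat and 246 in the control rat, a log2 ratio of 0.50. The third, AF029240_at, had 171 in the immobilized rat and 205 in the control rat, a log2 ratio of -0.26. The gene was thus higher at 2 of 3 probe sets, and its span of 0.78 on the log2 scale was the widest of the 9 genes of the complex with 2 or more measured probe sets.

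RT1-M3-1, whose mouse counterpart presents N-formylated peptides, had 141 in the immobilized rat and 156 in the control rat (-0.15), while its second probe set was below the floor on both arrays, with 4.37 in the immobilized rat and 4.10 in the control rat. RT1-M5 had 83.8 in the immobilized rat and 107 in the control rat (-0.36), the lowest log2 ratio of the complex. The RT1-N genes were close to the floor. L23128_g_at, annotated to RT1-N2 and RT1-N3, had 59.7 in the immobilized rat and 44.4 in the control rat (0.43). L23128_at, annotated to RT1-N3, had 44.5 in the immobilized rat and 24.7 in the control rat, which allows only a bound of at least 1.11-fold higher. The probe set for RT1-M6-1 and RT1-M4 was below the floor, with 16.8 in the immobilized rat and 23.2 in the control rat, as was the unclassified set that lists B2m, with 5.48 in the immobilized rat and 17.9 in the control rat.

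**Figure D2:**
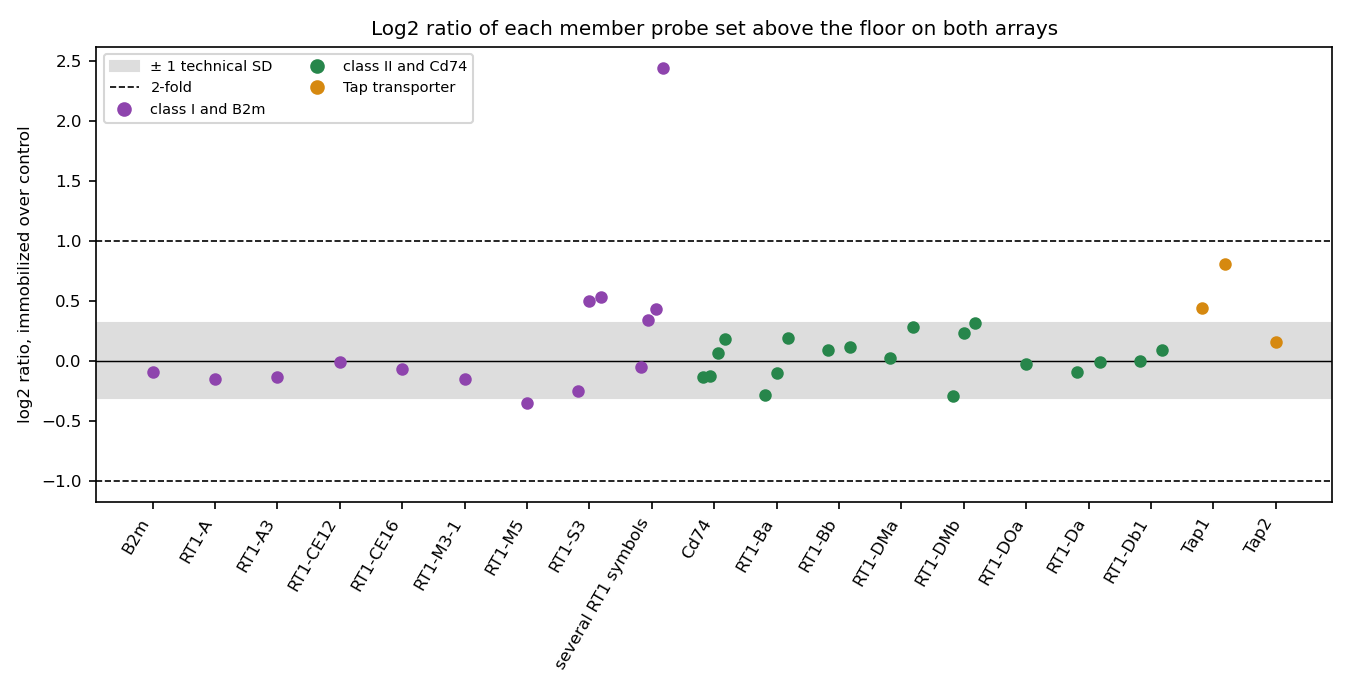
Log2 ratio of the immobilized over the control rat for each probe set of the complex above the floor on both arrays, by gene, with class I and B2m, class II and Cd74, and the Tap transporter in separate colours. The grey band is 1 technical SD (0.31) either side of 0 and the dashed lines are 2-fold. AF074609mRNA_f_at at 2.44 lies above the 2-fold line, and the class II probe sets lie between -0.29 and 0.32. Between the band and the upper 2-fold line lie the Tap1 probe sets at 0.44 and 0.81. RT1-S3 probe sets at 0.50 and 0.53, L23128_g_at at 0.43 and M64795_i_at at 0.34 lie there too. The class II probe set rc_AI171966_at of RT1-DMb at 0.32 lies just above the band. RT1-M5 at -0.36 lies below the band.

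All 3 measured probe sets of the peptide transporter genes were higher in the immobilized rat, as were 49.8% of all probe sets above the floor on both arrays. The 3 cover 2 genes, and both Tap1 probe sets come from the same sequence record, so their shared direction counts for little. Tap1, one subunit of the transporter, had 311 in the immobilized rat and 178 in the control rat at X57523_at, 1.75-fold higher with a log2 ratio of 0.81. At X57523_g_at Tap1 had 379 in the immobilized rat and 280.4 in the control rat, a log2 ratio of 0.44. Tap2, its partner, had 592 in the immobilized rat and 532 in the control rat, a log2 ratio of 0.15. Both Tap1 values exceeded 1 technical SD and that of Tap2 did not, and none reached 2-fold. Over the settings tried the log2 ratios were 0.76 to 0.82, 0.41 to 0.45 and 0.13 to 0.16 for the 3 probe sets in that order.

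Tap2 and Tap1 lie in the class II region of chromosome 20 (4638257 to 4652296 and 4658171 to 4668543), each beside a gene for an interferon-induced subunit of the immunoproteasome. Psmb9 starts 408 bases from Tap1 on the opposite strand, so that both are read away from a common stretch of sequence. Psmb9 had 1348 in the immobilized rat and 985 in the control rat at 1 probe set (log2 ratio 0.45) and 673 in the immobilized rat and 694 in the control rat at the other (-0.04). Psmb8, between Tap2 and Tap1, had 1360 in the immobilized rat and 1321 in the control rat (0.04). The higher signal at Tap1 was thus found at 1 of 2 probe sets of its divergent neighbour.

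In class II, 19 of the 24 probe sets exceeded the floor in both rats and 5 in neither. Of the 19, 11 were higher and 8 lower in the immobilized rat, with a median log2 ratio of 0.02 and a range from -0.29 to 0.32. None reached 1.5-fold. The median lay between 0.00 and 0.06 over the settings tried, and the split was 12 to 7 at its most uneven among the scalings. Repeated probe sets of the same class II gene differed with an SD of 0.20 (7 genes, 18 probe sets), and the SD over the 19 values was 0.17.

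RT1-B, the rat counterpart of HLA-DQ, showed no common direction. Its alpha chain RT1-Ba had 1711 in the immobilized rat and 1501 in the control rat at K02815_s_at (log2 ratio 0.19). At X07551cds_s_at RT1-Ba had 1063 in the immobilized rat and 1298 in the control rat (-0.29). At M22366_at it had 167 in the immobilized rat and 179 in the control rat (-0.10). Its beta chain RT1-Bb was slightly higher at both measured probe sets, with 1581 in the immobilized rat and 1459 in the control rat at X56596_at (0.12), and 1003 in the immobilized rat and 945 in the control rat at M36151cds_s_at (0.09). The other 3 RT1-Bb probe sets had at most 4.47 in the immobilized rat and 1.20 in the control rat, below the floor.

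RT1-D, the counterpart of HLA-DR, was nearly equal in both rats. RT1-Da had 3136 in the immobilized rat and 3156 in the control rat at M15562_g_at (-0.01, above 0 after loess and with the floor at percentile 70), and 1096 in the immobilized rat and 1169 in the control rat at M15562_at (-0.09). RT1-Db1 had 1579 in the immobilized rat and 1481 in the control rat at X53054_g_at (0.09), and 458 in both rats at X53054_at. Over the 9 measured probe sets of the RT1-B and RT1-D chains the median log2 ratio was 0.00.

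Cd74, the invariant chain that blocks the peptide groove of new class II molecules and guides them to endosomes, was measured by 4 probe sets. X13044_g_at had 3144 in the immobilized rat and 2776 in the control rat (0.18), and X13044_at had 2909 in the immobilized rat and 2784 in the control rat (0.06). X14254cds_g_at had 2170.3 in the immobilized rat and 2372 in the control rat (-0.13), and X14254cds_at had 834 in the immobilized rat and 914.5 in the control rat (-0.13). The 4 probe sets divided 2 and 2 in direction, by the sequence record from which they were designed, and all lay within 1 technical SD of 0.

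The genes that edit the class II peptide were measured as well. RT1-DMb, the beta chain of the DM catalyst that releases the Cd74 remnant, had 1842 in the immobilized rat and 1478 in the control rat at rc_AI171966_at (0.32), the highest log2 ratio of class II. It had 628 in the immobilized rat and 534 in the control rat at U31599_g_at (0.23), but 179 in the immobilized rat and 219 in the control rat at U31599_at (-0.29), the lowest of class II. RT1-DMa, the alpha chain, had 490.3 in the immobilized rat and 404 in the control rat at Z49761_at (0.28), and 857 in the immobilized rat and 843 in the control rat at U31598_s_at (0.02, -0.01 after quantile normalization). RT1-DOa, the alpha chain of the DM inhibitor DO, had 262 in the immobilized rat and 267 in the control rat (-0.02). Its partner RT1-DOb was below the floor with 11.3 in the immobilized rat and 3.70 in the control rat, as was RT1-Ha with 10.4 in the immobilized rat and 20.2 in the control rat. Of the 5 measured DM probe sets 4 were thus higher in the immobilized rat, with the exception of U31599_at.

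**Figure D3:**
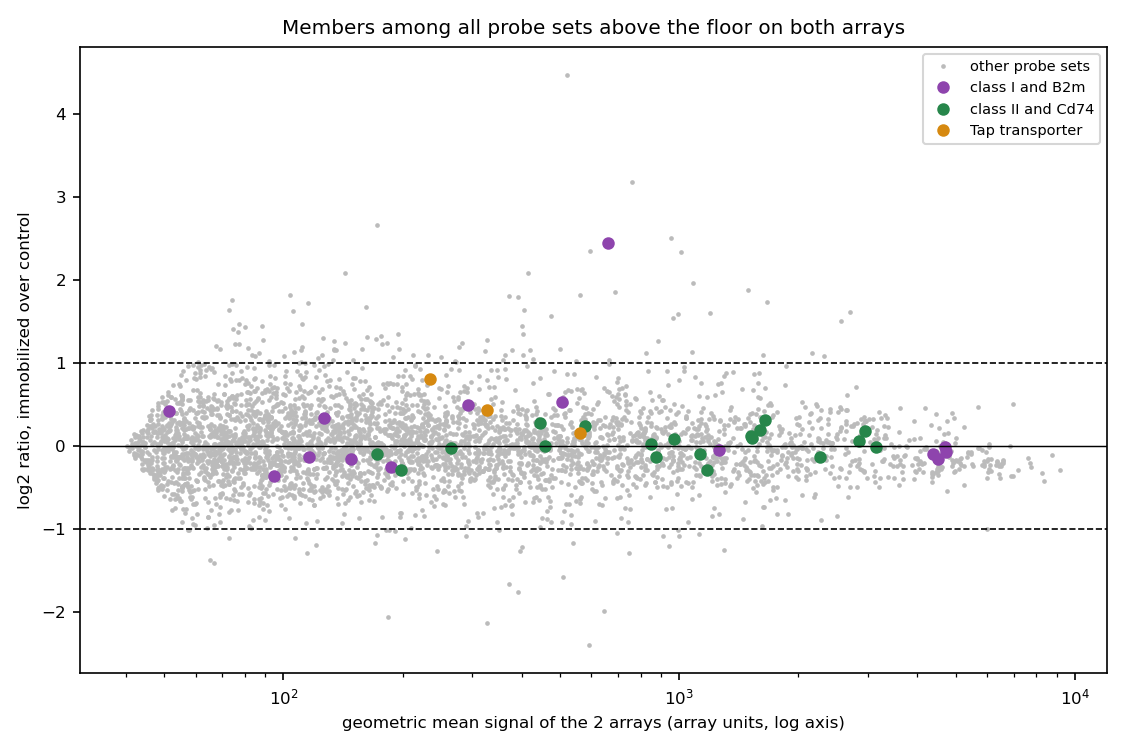
Log2 ratio of the immobilized over the control rat against the geometric mean signal of both arrays (array units, log axis) for the 4105 probe sets above the floor, with class I, class II and Tap probe sets coloured and the rest in grey. Dashed lines mark 2-fold. All coloured points but AF074609mRNA_f_at lie between the dashed lines, as do most grey points.

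Genes that work with the MHC but lie outside the rule were counted by list, with the brightest probe set of each gene, and 49.4% of all 2524 genes measured in that way were higher, with a median log2 ratio of -0.01. In the supply and loading of class I peptides, 8 of 13 listed genes were above the floor, 4 higher and 4 lower, with a median of 0.01 that was -0.10 with the probe sets of a gene averaged. Besides the immunoproteasome subunit Psmb9, the genes farthest from 0 at the brightest probe set were the thiol oxidoreductase Pdia3 of the loading complex (-0.42, 0.26 at a second probe set), the chaperone Hspa5 (-0.31, 0.02 at a second) and the proteasome activator subunit Psme2 (-0.13). Canx was at 0.13 at its brightest probe set, but its 5 measured probe sets ranged from -0.78 to 0.13.

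Of the class II processing genes 6 of 8 were lower and 2 higher, with a median of -0.20, which was -0.04 with the floor at percentile 70. Of the 8, Ctss at -0.02 and Ctsb at -0.08 were close to 0. The dipeptidyl peptidase Ctsc had 914 in the immobilized rat and 1377 in the control rat (-0.59, -0.42 at a second probe set). The cathepsin Ctsh was at -0.50, Ctsl at -0.37 and Ctse at -0.32. None of the 8 differed by 2-fold, and the 2 genes above 0, Cst3 and Ctsd, were at 0.00 and 0.02 and were below 0 with the signals as deposited. Of class-I-like molecules outside the RT1 symbols, the neonatal Fc receptor Fcgrt was at 0.11, the lipid-presenting Cd1d1 at -0.15 and the iron regulator Hfe at -0.01, the last pair with signals of at most 61.6.

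Among MHC regulators 2 of 6 measured genes were higher, with a median of -0.07. The interferon-induced factor Irf1 had 1556 in the immobilized rat and 1870.4 in the control rat (-0.27, -0.01 at a second probe set). The X box factor Rfx5 was at 0.25, the Y box factor subunit Nfyb at -0.46 and Irf8 at -0.10. Nfyc was at 0.07 at its brightest probe set and at -0.50 at a second. Of interferon targets and receptors, 13 genes had a probe set, 4 were measured in both rats and 2 of these were higher. The interferon gamma receptor Ifngr1 had 391 in the immobilized rat and 671 in the control rat (-0.78), the kinase Jak2 was at -0.64, Oas1a at 0.30 and Stat2 at 0.43. Interferon gamma itself, Ifng, was below the floor at both of its probe sets, with at most 8.43 in the immobilized rat and 7.40 in the control rat.

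**Figure D4:**
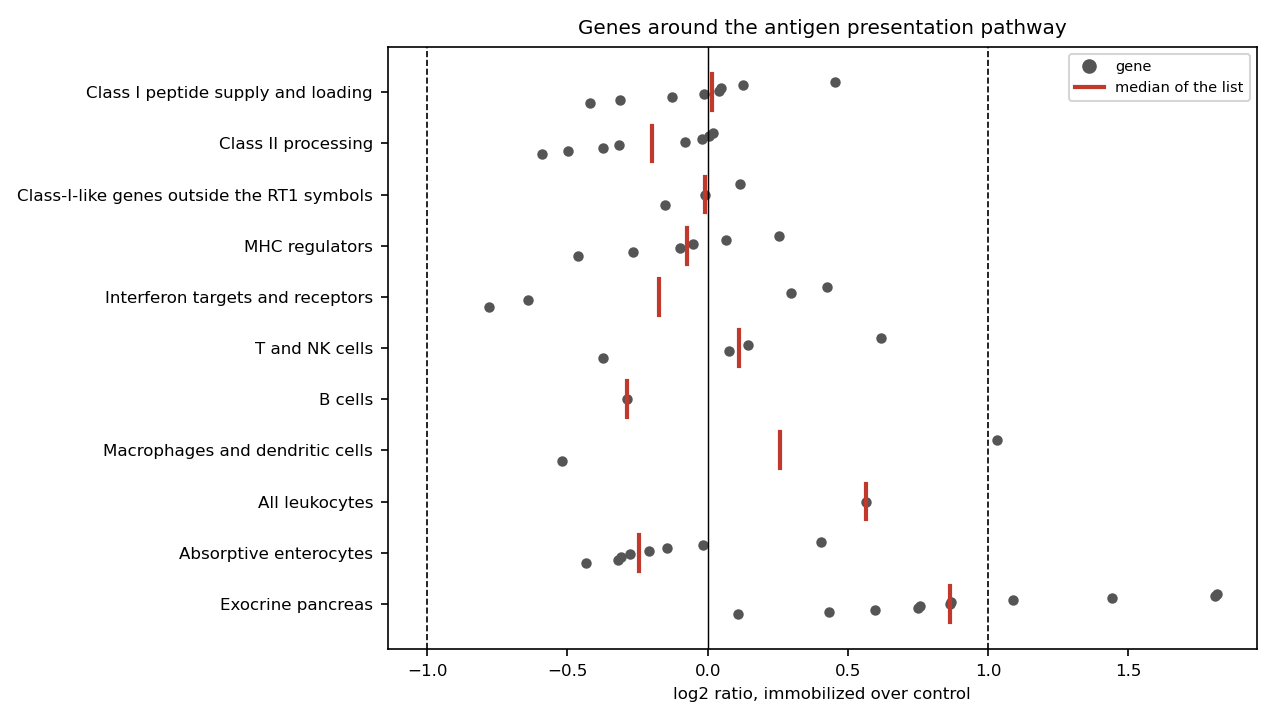
Log2 ratio of the immobilized over the control rat for each measured gene of 11 lists (points, 1 probe set per gene) with the median of each list (red bar). Dashed lines mark 2-fold. The exocrine pancreas median of 0.86 lies farthest right, the enterocyte median is -0.24, and the lists of the MHC pathway have medians between -0.20 and 0.01.

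Markers of the immune cells that could carry these transcripts were mostly below the floor. Fewer cells of a type and less RNA per cell cannot be told apart in such bulk tissue. Of T and NK cell markers 4 of 13 exceeded the floor in both rats and 3 of these were higher, with a median of 0.11. Cd3g had 63.5 in the immobilized rat and 41.3 in the control rat (0.62). Cd4 had 45.9 in the immobilized rat and 59.4 in the control rat (-0.37), so both genes were close to the floor. With the probe sets of a gene averaged, 2 of the 4 were higher and the median was -0.02, since Gzmb was at 0.08 at its brightest probe set and -0.45 at a second. The list summed to 574 in the immobilized rat and 523 in the control rat. Sums of a list here and below include genes below the floor and depend most on the brightest probe sets. Cd8a, Cd3d and Cd2 were below the floor, and no marker was at 0. Of the leukocyte genes, Coro1a had 191 in the immobilized rat and 129 in the control rat (0.57), while Ptprc, the common leukocyte antigen, had 38.4 in the immobilized rat and 50.1 in the control rat at its brightest probe set and was below the floor at the other 2. The leukocyte list summed to 229 in the immobilized rat and 179 in the control rat.

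Of the B cell list, Cd79b was below the floor in both rats and Cd24, which epithelial cells also express, was at -0.29, with a sum of 2654 in the immobilized rat and 3225 in the control rat. Macrophage and dendritic cell markers summed to 1116 in the immobilized rat and 673 in the control rat. Lyz2 made up 952 in the immobilized rat and 465 in the control rat (1.03). Cd14, the only other measured gene, was lower, with 53.0 in the immobilized rat and 75.9 in the control rat (-0.52). The remaining 6 of 8 genes, Csf1r, Itgam and Cd86 among them, were below the floor. Lyz2 is also a product of Paneth cells in rodents. Enterocyte markers were lower for 7 of 8 genes, with a median of -0.24 and a sum of 36996 in the immobilized rat and 42051 in the control rat. Exocrine pancreas genes were higher for 11 of 11, with a median of 0.86 and a sum of 12736 in the immobilized rat and 6691 in the control rat. The part of these cell types in the higher Tap1, RT1-S3 and AF074609mRNA_f_at signals was not tested.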

How the data were processed

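The deposited values are signal intensities on a linear scale, 1 per probe set, that the authors made from the scans. The submitters' processing notes name MAS5, while the series' design text gives version 4.0 of Affymetrix software with filtering and normalization, so the signal algorithm is unsettled. The trimmed means (2% from each end) were 215.9 in the immobilized rat and 216.0 in the control rat, and detection calls were not used here. Genes came from the array annotation, and 308 probe sets had several symbols. For 6985 of 7006 single-symbol probe sets the gene ID was found in RefSeq and its symbol was used, whether or not it differed. From these intensities, scaled signals, the floor, log2 ratios and counts at 2-fold were computed for 8740 probe sets without the 59 array controls. A signal above the floor on 1 array only gives a bound. All probe sets of the rule are accounted for. Up to 4 genes per list, those farthest from 0 at the brightest probe set, were named, with some others. Members, lists and motifs were chosen with earlier results of these data known. Alternatives were the scaling (as deposited, trimmed mean, quantile, loess with span 0.3), the floor (percentiles 30 and 70, or none with 16 added to each signal), thresholds of 1.5-fold and 3-fold, bounds counted, several-symbol sets left out, and means per symbol. Leaving out AF074609mRNA_f_at was chosen after seeing the data. The computation was tested on simulated data. The tools were matplotlib 3.10.9, statsmodels 0.14.6, scipy 1.17.1, pandas 2.3.3 and numpy 2.4.6 under Python 3.11.15.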

Additional observations from a re-analysis of the deposited data

How the results depend on the processing

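No paired analysis was possible because each condition has 1 array. For the probe sets of the complex, 0 of 248 log2 ratios recomputed under 7 settings moved by 1 technical SD, and 30 of 36 probe sets kept their sign, while 12 values of the other 6, all near 0, had the opposite sign. Signals as deposited, trimmed mean scaling and the other floors shift all ratios by a small common amount and could not move any that far. Scaling to the control probe sets was not tried, and their median log2 ratios were -0.33 (beta-actin and GAPDH) and -0.21 (spike-ins). With the floor at percentile 70 (127.5) 4 of the 36 had no ratio. The number of class I probe sets higher in the immobilized rat was 5, but 8 after quantile normalization or loess and 2 without several-symbol sets. The array-wide counts at 2-fold, 96 higher and 35 lower, were 214 and 127 with the floor at percentile 30 (12.6), 49 and 22 at percentile 70, 163 and 85 with no floor, 364 and 224 at 1.5-fold, and 25 and 6 at 3-fold. The number of class II processing genes higher, 2, was 0 with deposited signals or trimmed mean scaling and 1 after quantile normalization or with probe sets averaged. Enterocyte genes higher numbered 1, but 3 after quantile normalization or loess, and MHC regulators 2, but 1 with probe sets averaged. Averaging also turned the medians of T and NK cells (0.11) to -0.02 and of class I peptide supply (0.01) to -0.10. With the floor at percentile 30, the interferon list had 5 genes higher and a median of 0.30, T and NK cells 5, B cells 1, macrophages and dendritic cells 2 with a median of -0.51, and leukocytes a median of 0.10. At percentile 70 the interferon list had 0 higher and a median of -0.77, T and NK cells 1, and macrophages and dendritic cells a median of 1.04. With no floor, the interferon list had 8 higher and a median of 0.21, T and NK cells 8, B cells 1, class-I-like genes 2, macrophages and dendritic cells 3 with a median of -0.28, and leukocytes a median of 0.12. These lists change with the floor because it sets which dim genes enter. Their main values rest on at most 4 genes.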

Other observations

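The probe set with the highest log2 ratio of the whole array, AF074608mRNA_f_at, has no gene in the annotation used here and was therefore not counted in the complex. It was chosen after its values were seen. Its signal was 2438 in the immobilized rat and 110.9 in the control rat, a log2 ratio of 4.46. It carries the family suffix of AF074609mRNA_f_at, and its record number is the next one below. Of the other 9 probe sets with the highest log2 ratios, 2 list immunoglobulin kappa variable symbols, M18526cds_f_at with 2287 in the immobilized rat and 253 in the control rat, and M12981cds_f_at with 2276 in the immobilized rat and 400.3 in the control rat.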
